A study of Oryza sativa with 18 samples.

Results

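The genes described here are the 150 transcripts of rice leaf that salt lowered most among those whose libraries under salt all lay below all control libraries. They were chosen from 37863 genes in the count table. CPM, the counts of a gene per 1000000 counts of its library, was computed from the column totals, and levels were taken as log2(CPM + 0.5). A mean of at least 5 CPM over the 9 control libraries was reached by 15922 genes. Of these, 272 (1.71%) had their highest salt library below their lowest control library, and the 150 with the largest mean difference were taken. The salt and control values of all 18 libraries therefore chose the members, and every salt difference of theirs given below is a description of that choice, not a test of it.

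The libraries hold leaf mRNA of the FKBP57 knockout line, the FKBP73 knockout line and the wild-type cultivar Ningjing 4 that both were compared with. Each genotype was sampled under salt stress, 150 mM NaCl for 4 hours, and in normal nutrient solution as the control, with 3 biological replicates in each of the 6 groups per the series design. The sources used here give no time for the controls, no plant age, no mutated allele and no number of independent lines, so salt cannot be told apart from a difference in harvest time, and a knockout effect cannot be told apart from an effect of the line used. The FKBP57 and FKBP73 genes were not analysed here, and no table used here links them to identifiers. The knockouts were thus not checked at their targets.

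FK506-binding proteins, the family of both knocked-out genes, include enzymes that speed the turning of peptide bonds before proline, and larger members often act beside chaperones. Salt first reaches a leaf as water deficit. In the hours after such a shock, leaves commonly lower transcripts of growth, cell wall extension and photosynthesis while transcripts of water-deficit protection go up. A lower count in a whole leaf can reflect less RNA per cell or fewer cells of a type, which bulk libraries do not separate.

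The deposited counts carry identifiers without names, and 1 of those identifiers occurs in the reference table used here (ASM3414082v1), so no member could be named and no sequence is given. Members are therefore printed as RAP-DB identifiers, a few per ranking, with no function stated for them.

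Library totals ran from 28344668 to 37320965 counts under salt and from 27601098 to 39894394 under control. The lowest correlation between replicates, on log2(CPM + 0.5) over the 15922 genes, was 0.687 in the FKBP57 knockout controls and 0.836 in the wild-type controls, against 0.92 to 0.971 in the other 4 groups. A list of 12 photosynthesis genes, identified from prior knowledge, summed to between 6730 and 46300 CPM over the 18 libraries, and 6 root marker genes to between 7.41 and 50.8 CPM, 1 of them with no count anywhere. The photosynthesis sum was 9770 CPM in FKBP57 knockout control 2, below every other control library, and 46300 CPM in FKBP57 knockout control 3. Control libraries of this group thus stood furthest apart. The sum also ran from 16600 to 38900 CPM in the FKBP73 knockout controls and from 17900 to 34500 CPM in the wild-type controls.

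Membership depended strongly on a few libraries. When the rule was applied without FKBP57 knockout salt 3, 78 of the 150 were chosen again, and without FKBP57 knockout control 3 the number was 85. Without FKBP57 knockout control 2 it was 102, and without any single other library it was 135 to 148. When salt library 3 and control library 3 of the FKBP57 knockout and control library 3 of wild type were left out together, 1389 genes met the conditions and 5 of the 150 members were among the 150 chosen. Choosing genes on all 18 libraries thus gave a list that differed from one chosen without these 3. Members still met the condition on overlap when libraries were left out, and could be outranked by added genes. Without FKBP57 knockout salt 3, 521 genes met every condition, and without its control 3, 401 did, against 272 with all libraries. A member not chosen again had therefore not lost its separation.

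This shows in the ranking by size alone. Without the condition on overlap, the 150 largest mean falls included 19 members, and the smallest of those falls was 2.13 on the log2 scale. Among the other 131 genes, FKBP57 knockout salt 3 was the highest salt library for 112, and FKBP57 knockout control 3 was the lowest control library for 104. Among the members, FKBP57 knockout salt 3 was the highest salt library for 80, and the lowest control library was FKBP57 knockout control 2 for 50 and control 3 for 26. A library of the FKBP57 knockout was the highest under salt for 120 members and the lowest under control for 84, and for 69 it was both.

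**Figure D1:**
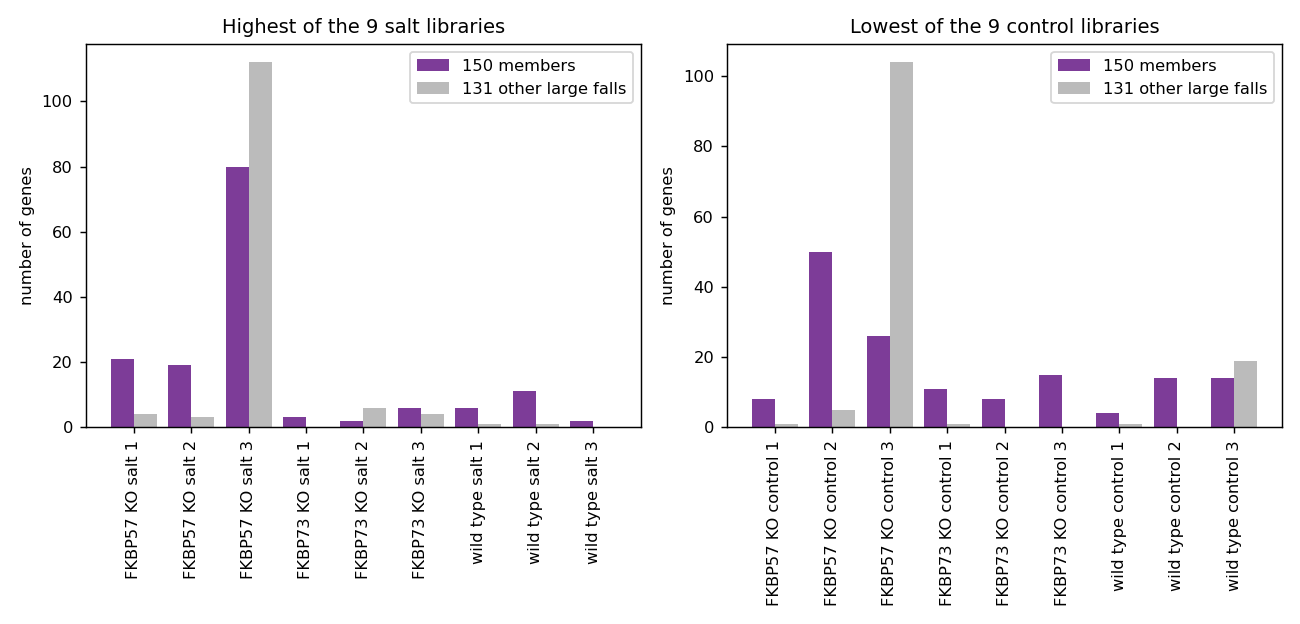
Number of genes (y axis) for which each library (x axis) is the highest of the 9 salt libraries (left) or the lowest of the 9 control libraries (right), for the 150 members (purple) and for the 131 other genes among the 150 largest mean falls (grey). FKBP57 KO salt 3 is highest for 80 members and 112 other genes, and FKBP57 KO control 3 is lowest for 26 members and 104 other genes.

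The fall of the members was moderate and broad. Mean falls ran from 1.07 to 4.39 on the log2(CPM + 0.5) scale, with a median of 1.47. In CPM + 0.5 this is 2.11-fold to 20.9-fold with a median of 2.76-fold. On that scale at least 4-fold falls were seen for 24 members and at least 8-fold falls for 3. The added 0.5 makes the fold smaller for members near 0 CPM under salt, and so affects these counts and the ranking. Os12g0435200, with means of 0.164 CPM under salt and 6.5 CPM under control, counted as 9-fold. Its fitted log2 fold change averaged over genotypes was -5.31. Mean levels ran from 0.164 to 302 CPM under salt (median 6) and from 5.1 to 677 CPM under control (median 21.6). Most members were reduced and not silenced: 5 averaged under 1 CPM under salt, 1 was under 1 CPM in every salt library, and all but 1 had a count in every library. The gap between the lowest control and the highest salt library was narrow, from 0.0026 to 1.53 on the log2 scale with a median of 0.235.

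The members varied about as much within a condition as other genes did under control and more under salt. The range over the 9 salt libraries had a median of 1.26 on the log2 scale for members and 0.771 for all 15922 genes. Over the 9 control libraries it was 1.1 for members and 1.07 for all. The members had a median level of 6 CPM under salt, and the 15922 genes were not matched to them for level. Summed over members, the level was 3435 ± 217 CPM under salt and 7905 ± 1340 CPM under control in the FKBP57 knockout (SD, n = 3 each). In the FKBP73 knockout the sums were 2384 ± 479 and 7430 ± 128 CPM under salt and control, and in wild type 2385 ± 381 and 7338 ± 697 CPM. The members held 0.196% to 0.368% of all counts under salt and 0.637% to 0.883% under control.

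**Figure D2:**
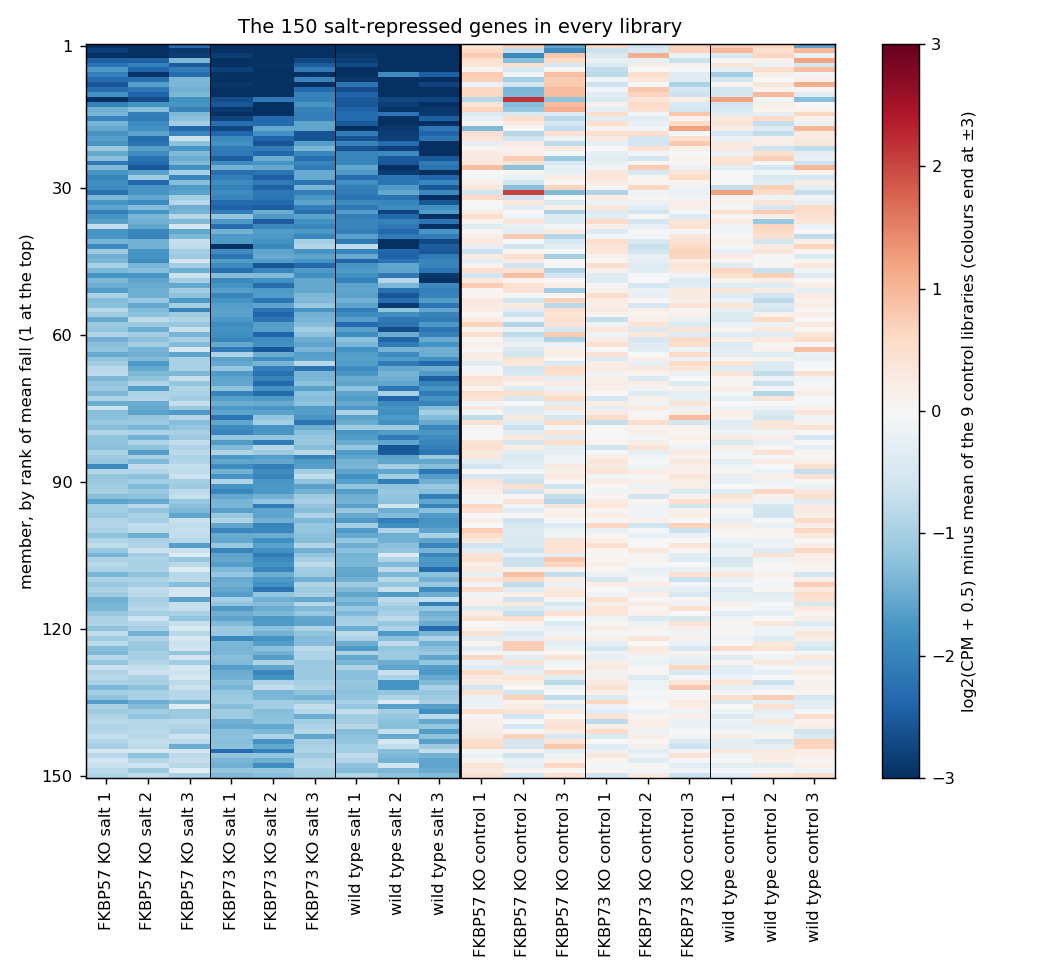
Level of each of the 150 members (rows, by rank of mean fall) in each library (columns), as log2(CPM + 0.5) minus the mean of the 9 control libraries; blue is lower and red is higher, with colours ending at ±3. The 3 FKBP57 KO salt columns are paler than the other salt columns, and FKBP57 KO control 2 and control 3 differ from each other in the upper rows.

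Os09g0487200 had the largest mean fall, 4.39 on the log2(CPM + 0.5) scale. Under salt it had 2.14, 0.736 and 6.29 CPM in the FKBP57 knockout, 1.32, 0.847 and 1.06 CPM in the FKBP73 knockout, and 0.903, 0.635 and 0.241 CPM in wild type. Under control it had 45.4, 56.7 and 11.1 CPM in the FKBP57 knockout, 52.5, 22.6 and 55.4 CPM in the FKBP73 knockout, and 57.7, 53.6 and 11.1 CPM in wild type. FKBP57 knockout salt 3 was high among the salt libraries, and control 3 of both the FKBP57 knockout and wild type were low among the controls. The fitted log2 fold change for salt, averaged over genotypes, was -5.02 (SE 0.47, edgeR adjusted p = 1.3e-06).

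Os12g0435200 followed with a mean fall of 3.17 and was close to silent under salt. Its salt libraries had 0.347, 0.128 and 0.293 CPM in the FKBP57 knockout, 0, 0.0706 and 0.256 CPM in the FKBP73 knockout, and 0.169, 0.0552 and 0.161 CPM in wild type. The controls had 8.41, 3.18 and 1.1 CPM in the FKBP57 knockout, 3.26, 3.71 and 9.07 CPM in the FKBP73 knockout, and 11, 7.7 and 11 CPM in wild type. Control values reached lower in both knockouts than in wild type, and both knockouts' control ranges overlapped that of wild type. Its fitted log2 fold change was -5.31 (SE 0.50, edgeR adjusted p = 1.4e-06).

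The most abundant members kept high levels under salt. Os12g0541500 had 343, 387 and 450 CPM in FKBP57 knockout salt libraries, 224, 142 and 313 CPM in those of the FKBP73 knockout, and 264, 417 and 182 CPM in those of wild type. Its control libraries had 979, 519 and 796 CPM in the FKBP57 knockout, 664, 569 and 547 CPM in the FKBP73 knockout, and 514, 685 and 820 CPM in wild type. The log2 fold change over genotypes was -1.25 (SE 0.22, edgeR adjusted p = 0.00039), and in the FKBP57 knockout alone -1.14 (SE 0.38, edgeR adjusted p = 0.092).

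Os03g0290300 had 158, 177 and 108 CPM under salt in the FKBP57 knockout, 57.6, 45.6 and 107 CPM in the FKBP73 knockout, and 81.9, 55.6 and 57.4 CPM in wild type. In control libraries it had 688, 197 and 911 CPM in the FKBP57 knockout, 356, 599 and 297 CPM in the FKBP73 knockout, and 314, 462 and 464 CPM in wild type. FKBP57 knockout control 2 lay close to that knockout's highest salt library. Over genotypes the log2 fold change was -2.51 (SE 0.32, edgeR adjusted p = 2.2e-05).

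At the end of the ranking, Os03g0816500 and Os05g0503300, the last 2 members, had mean falls of 1.08 and 1.07. The next genes, Os01g0978500 and Os12g0204600, both had 1.07 and met every other condition. The limit therefore fell among genes with nearly equal values.

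The salt difference was seen in each genotype, with the smallest size in the FKBP57 knockout. Median changes of the members, salt minus control on the log2(CPM + 0.5) scale, were -1.17 in the FKBP57 knockout, -1.62 in the FKBP73 knockout and -1.63 in wild type. The medians over the 15922 genes were 0.0682, 0.00541 and -0.0486 in the same genotypes. Changes over all these genes were also narrowest in the FKBP57 knockout, with SDs of 0.593, 0.756 and 0.941. Column totals in place of TMM scaling moved the median salt change of all tested genes by 0.120, 0.030 and -0.031. The counts by genotype that follow are not given for all genes. The fall was smallest in the FKBP57 knockout for 115 members, in the FKBP73 knockout for 17 and in wild type for 18. It was largest in the FKBP57 knockout for 5, in the FKBP73 knockout for 69 and in wild type for 76.

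**Figure D3:**
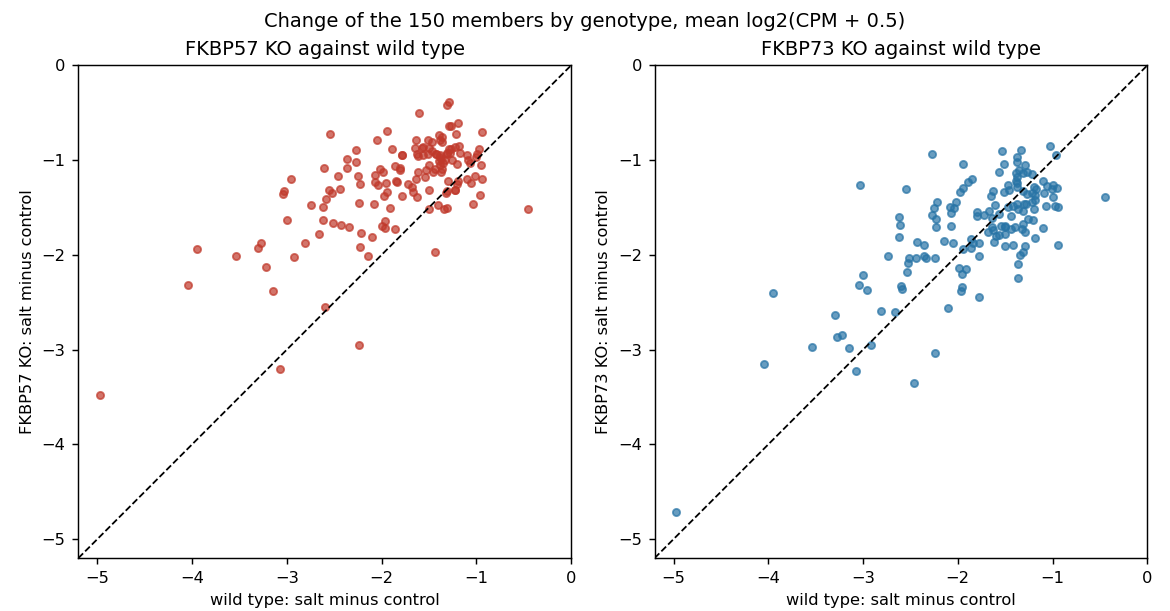
Mean change of each member (points) under salt, salt minus control on the log2(CPM + 0.5) scale, in the FKBP57 KO (left, y axis) and the FKBP73 KO (right, y axis) against wild type (x axes); the dashed line marks equal change. Above the line, with a smaller fall than in wild type, lie 129 of 150 members for the FKBP57 KO and 79 for the FKBP73 KO.

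Across the whole table, edgeR's quasi-likelihood test called 116 of the 150 members lower in the FKBP57 knockout, where 1.68% of 25957 tested genes were called lower. It called 144 in the FKBP73 knockout, where 5.46% of genes were called lower, and 145 in wild type, where 10.9% were. For salt averaged over genotypes it called all 150, with 22.5% of genes called lower. The rule used these contrasts, so nothing is read from the counts. Fitted log2 fold changes had medians of -1.41 (-4.13 to -0.59) in the FKBP57 knockout, -1.75 (-5.58 to -0.98) in the FKBP73 knockout and -1.72 (-6.21 to -0.40) in wild type. The count of members called in the FKBP57 knockout was 56 without its control 1, 45 without its salt 1 and 50 without its salt 2. It was 8 in a fit of its 6 libraries alone. The members' median log2 fold changes in those fits were -1.30, -1.38, -1.37 and -1.39. The shares of all genes called lower in those fits are not given here.

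The same measure was then read in libraries the choice had not used. The rule was applied to 2 genotypes, and the 150 genes it gave were counted in the third. In the FKBP57 knockout, 43 of 150 genes chosen in the other genotypes had their 3 salt libraries below their 3 control libraries, where 4.53% of genes of at least 5 CPM did, and their median change there was -1.36. For the FKBP73 knockout the count was 140, where 23.3% of genes did, with a median of -1.59. For wild type it was 145, where 18.2% of genes did, with a median of -1.63. In all 3 genotypes nearly all of these genes had a lower mean under salt: 147 in the FKBP57 knockout, 150 in the FKBP73 knockout and 150 in wild type. Over all genes of at least 5 CPM, 42.9%, 49.6% and 53.1% had a lower mean under salt in the same genotypes, with median changes of 0.07, 0.01 and -0.04.

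The low count in the FKBP57 knockout depended on single libraries. It was 119 without that knockout's control 3, where 12.7% of genes did the same, 81 without its salt 3 (8.45%) and 11 without wild type control 3 (4.52%), which changed the genes chosen. The genes chosen without the FKBP57 knockout had a median fall of 2.47 on the log2 scale in the other genotypes and shared 37 with the members. Those chosen without the FKBP73 knockout shared 122, and those chosen without wild type shared 125.

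**Figure D4:**
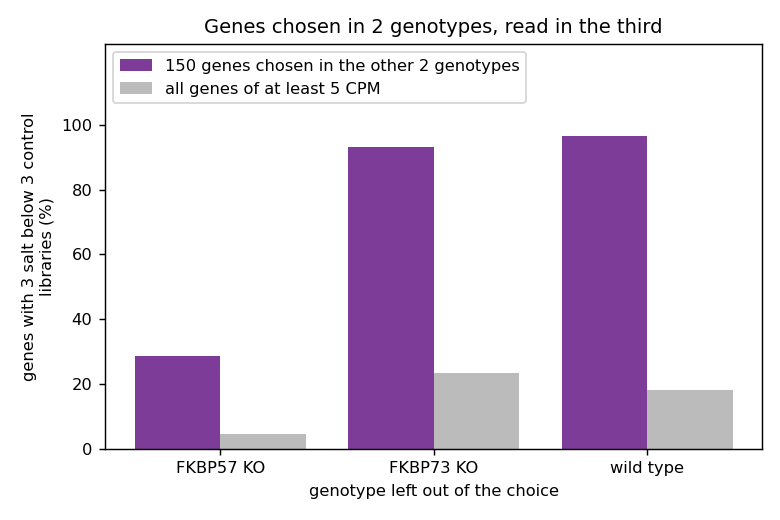
Share of genes whose 3 salt libraries lie below their 3 control libraries (y axis, percent) in the genotype left out of the choice (x axis), for the 150 genes chosen in the other 2 genotypes (purple) and for all genes of at least 5 CPM over the controls of those genotypes (grey). The purple bars reach 28.7% in the FKBP57 KO, 93.3% in the FKBP73 KO and 96.7% in wild type, against grey bars of 4.53%, 23.3% and 18.2%.

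The genotypes were compared within each condition, a contrast that the rule did not use directly. The rule did bound and rank genes by the same salt and control values. The counts for these comparisons, in either knockout, are therefore not free of the choice and describe the genes it gave. Under salt the members were mostly higher in the FKBP57 knockout than in wild type, and edgeR called no single member. Of the 150, 139 had a positive log2 fold change, with a median of 0.51 (-0.78 to 2.29) and 29 members above 1, while 52.1% of all 25957 genes were positive, with a median of 0.02. edgeR called 0 members, with 0.304% of all genes called. The lowest adjusted p was 0.072. At an unadjusted p under 0.05 there were 48 members higher and 1 lower, and 9.97% of all genes in either direction, and DESeq2 called 12 members, with 1.43% of all genes called. All 3 FKBP57 knockout salt libraries lay above all 3 wild-type salt libraries for 70 members, as for 10.2% of the 15922 genes, and below them for 1, as for 11.6%.

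Other genes lowered by salt showed a similar tilt. Of the 5684 genes outside the 150 that edgeR called lower for salt averaged over genotypes, 84.3% were higher in the FKBP57 knockout than in wild type under salt, with a median log2 fold change of 0.41, against 92.7% of the members. Without FKBP57 knockout salt 3, the highest salt library for 80 members, 132 members were higher, with a median of 0.45. Of the 122 genes that met the conditions at lower rank, 95 were higher in the knockout, with a median of 0.16.

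In control libraries, of the 150 members, 98 were higher in the FKBP57 knockout than in wild type, with a median log2 fold change of 0.17, where 59% of all genes were positive, with a median of 0.06. Of the 122 genes at lower rank, 102 were higher in the knockout, with a median of 0.19. edgeR and DESeq2 called 0 members, with 0.204% of all genes called by edgeR and 0.412% by DESeq2. At an unadjusted p under 0.05 there were 5 members higher and 0 lower, and 3.02% of all genes in either direction. Scaling by library totals without TMM factors moved the median of all genes by -0.110 for this comparison. It left 78 members higher, with a median of 0.04 against -0.05 for all genes. All 3 knockout libraries lay above those of wild type for 8 members, as for 0.729% of the 15922 genes, and below for 9, as for 2.47%.

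The difference of the salt responses from wild type was taken next. The rule asked for a fall in every genotype and ranked genes by their mean fall. The counts for this difference, in either knockout, therefore describe values that the rule used. The response was less negative in the FKBP57 knockout than in wild type for 117 of 150 members, with a median difference of 0.40 (-1.29 to 2.58) and a median SE of 0.46, where 46.5% of all genes were positive and their median was -0.05. The members were not alone in this: of the 5684 other genes called lower by salt, 72.1% were positive, against 78% of the members, with a median of 0.33. Of the 122 genes at lower rank, 58 were positive, with a median of -0.01. edgeR called 0 members, with 0% of genes called, and the lowest adjusted p was 0.77. At an unadjusted p under 0.05 there were 20 members, and 6.21% of all genes. DESeq2 called 1 member, with 0.1% of all genes called. Library totals moved the median of all genes by 0.156, with medians of 0.56 for members and 0.11 for all genes. The number of members with a less negative response was 110 without FKBP57 knockout salt 3 and 107 without its control 2.

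In the FKBP73 knockout the members' median differences from wild type were near 0. Under salt 80 of 150 were higher, with log2 fold changes between -1.42 and 1.49 (median 0.03), and under control 79, between -1.12 and 0.72 (median 0.02). Of all tested genes, 47.1% were higher under salt and 46% under control. Of the 5684 other genes called lower by salt, 58.4% and 39.5% were. edgeR called 0 members in both, with 0% of genes called in each. At an unadjusted p under 0.05 there were 14 members under salt, and 5.12% of all genes, and 5 members under control, and 2.85% of all genes. DESeq2 called 1 member under salt, with 0.239% of all genes called, and 0 under control, with 0.0925% called. All 3 FKBP73 knockout salt libraries lay above those of wild type for 14 members, as for 16.9% of the 15922 genes, and below for 8, as for 7.81%. In control libraries this was so for 10, as for 2.3%, and for 9, as for 2.59%. The salt response was less negative for 78 members, with a median difference of 0.03, and edgeR called 0 members, with 0% of genes called. This difference was positive for 49.4% of all genes. It was positive for 61.2% of the other genes called lower by salt, with a median of 0.15. At an unadjusted p under 0.05 there were 9 members, and 2.99% of all genes, and DESeq2 called 0 members, with 0.0154% of all genes called. The median SE of a member's difference was 0.45.

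Members differed in how evenly the genotypes fell. The range of the 3 genotype falls had a median of 0.698 on the log2(CPM + 0.5) scale and was at least 1 for 39 members. Os11g0521500 fell most evenly. Salt libraries had 71.6, 80 and 53.2 CPM in the FKBP57 knockout, 72.2, 52.6 and 83.4 CPM in the FKBP73 knockout, and 55.2, 63.8 and 48.2 CPM in wild type. In controls it had 161, 163 and 182 CPM, 185, 147 and 185 CPM, and 144, 104 and 175 CPM in the same genotypes. Its changes were -1.32 in both knockouts and -1.31 in wild type. The highest salt library, at 83.4 CPM, lay below the lowest control library, at 104 CPM.

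Os12g0104400 was nearly as even, with changes of -1.73 in the FKBP57 knockout, -1.83 in the FKBP73 knockout and -1.86 in wild type. It had 4.88, 4.03 and 6.64 CPM under salt in the FKBP57 knockout, 5.08, 5.01 and 4.26 CPM in the FKBP73 knockout, and 5.42, 3.75 and 3.8 CPM in wild type. Controls had 19.9, 30.6 and 9.4 CPM in the FKBP57 knockout, 16.1, 16.7 and 22.5 CPM in the FKBP73 knockout, and 18, 24.9 and 10.4 CPM in wild type. The salt values were close together, while control 3 was the lowest of its group in both the FKBP57 knockout and wild type. Rice chromosomes 11 and 12 share a duplicated segment at their ends, and reads of a near-identical copy may not have been told apart for this gene.

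Os06g0299100 fell least evenly, with changes of -1.17 in the FKBP57 knockout, -3.35 in the FKBP73 knockout and -2.46 in wild type. Its salt libraries had 2.25, 1.22 and 2.34 CPM in the FKBP57 knockout, 0.269, 0.141 and 1.22 CPM in the FKBP73 knockout, and 0.959, 1.05 and 0.482 CPM in wild type. The controls had 4.89, 4.74 and 4.89 CPM, 9.95, 6.29 and 12.1 CPM, and 5.16, 5.38 and 10.6 CPM in the same genotypes. In the FKBP57 knockout the salt libraries were higher and the controls lower than in wild type. The difference of its salt response between the FKBP57 knockout and wild type was 1.60 (SE 0.81, edgeR adjusted p = 0.77).

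Os03g0149300 had 9.41, 5.82 and 7.2 CPM under salt in the FKBP57 knockout, 4.19, 3.39 and 7.02 CPM in the FKBP73 knockout, and 1.75, 2.62 and 2.57 CPM in wild type. Control libraries had 34.3, 22.2 and 33.8 CPM, 19, 32.1 and 31.4 CPM, and 26.1, 47.5 and 61.4 CPM in the same genotypes. Both knockouts stayed above wild type in every salt library. The response differed from wild type by 2.09 in the FKBP57 knockout (SE 0.56, edgeR adjusted p = 0.77) and by 1.76 in the FKBP73 knockout (SE 0.56, edgeR adjusted p = 0.99), 2 comparisons that share the wild-type libraries.

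**Figure D5:**
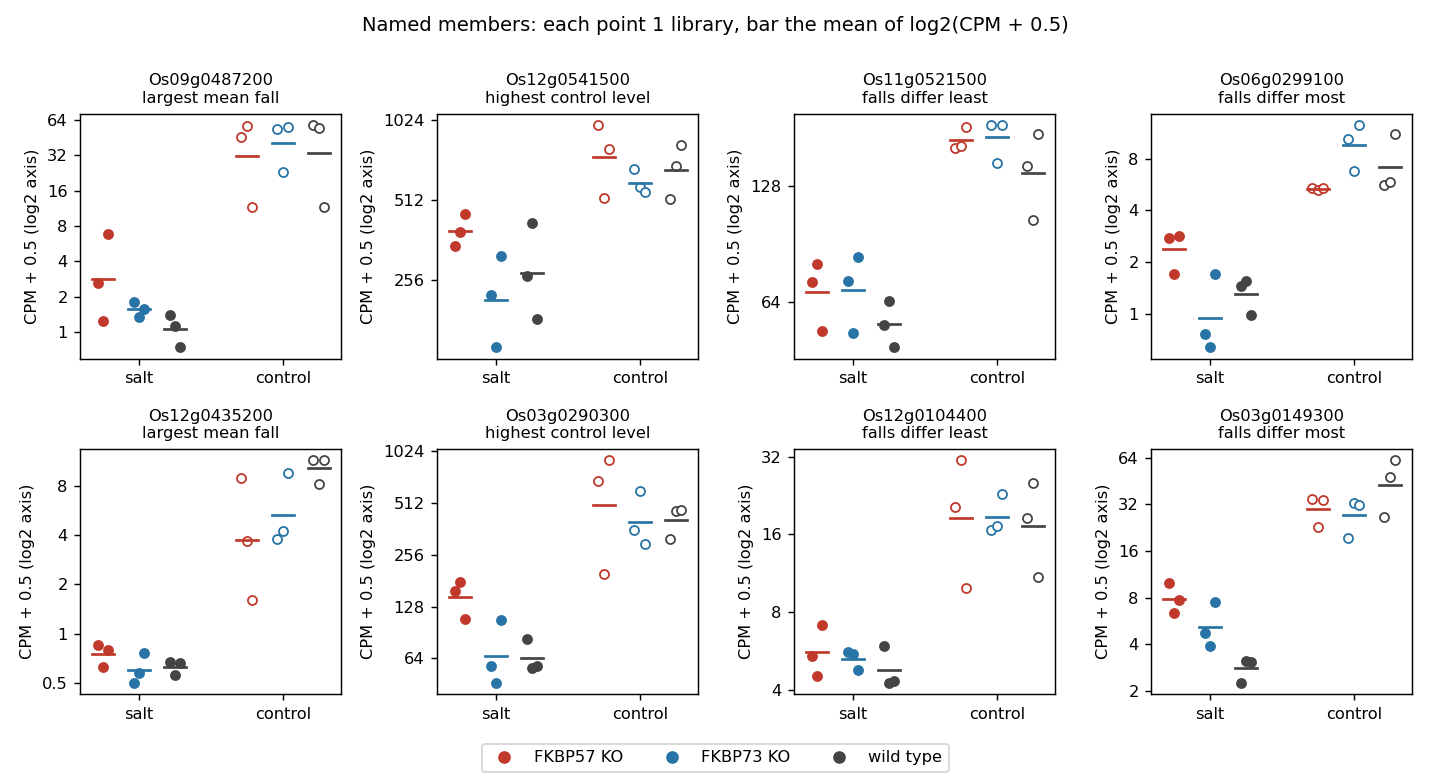
CPM + 0.5 (y axes, log2) of 8 members in every library, salt left (filled) and control right (open), with the genotypes in colour and bars at the mean of log2(CPM + 0.5). In each panel every salt point lies below every control point; Os11g0521500 falls alike in the 3 genotypes, and Os06g0299100 falls by 1.17 in the FKBP57 KO against 2.46 in wild type.

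Genes of 9 groups, several of them often lowered in stressed leaves, were looked up beside the members. Identifiers were assigned to the lists from memory of rice gene families, without a table to check them. None of 63 identifiers in 9 lists was among the 150, and 1, a type-A cytokinin response regulator, met the conditions at lower rank. Of the 63, 49 averaged at least 5 CPM under control, and members made up 0.942% of all such genes, so a count of 0 is near the background. For salt averaged over genotypes, 8 of 12 photosynthesis genes were called lower and 0 higher by edgeR, with log2 fold changes between -1.93 and -0.65 (median -1.14). All 12 averaged at least 5 CPM under control, and FKBP57 knockout control 2 was the lowest control library for all 12. The 5 primary wall and the 3 secondary wall cellulose synthases, which build growing and thickened walls, were all called lower for the mean over genotypes, with medians of -0.94 and -0.92, and FKBP57 knockout control 3 was the lowest control for 4 of the 5. Within genotypes, the secondary wall genes had median log2 fold changes of -0.12 in the FKBP57 knockout, with 0 called, -1.20 in the FKBP73 knockout, with 2 called lower, and -1.36 in wild type, with 3 called lower; the difference between genotypes was not tested for this list.

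Of 4 markers of dividing and meristem cells, 3 were called lower and 0 higher, with a median of -2.75, and FKBP57 knockout control 3 was the lowest control for all 3 that averaged at least 5 CPM. Their summed level ran from 7.9 to 40.7 CPM under salt and from 8 to 236 CPM under control. Within genotypes 0 were called in the FKBP57 knockout, 0 in the FKBP73 knockout and 3, all lower, in wild type. Their median log2 fold changes were -2.07, -1.69 and -4.49 in the same genotypes. In the FKBP57 knockout the sum was 40.7 CPM in salt 3. This was above the 20.7 and 8 CPM of controls 1 and 3 and below the 236 CPM of control 2. The part of these markers in the members' values was not tested. Of the 6 root markers, 4 were tested, 2 were called lower and 1 higher.

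The remaining lists moved less uniformly. Of the type-A cytokinin response regulators, which damp cytokinin signalling, 4 of 7 tested were called lower and 0 higher, with a median of -1.10. For nitrate and ammonium assimilation 2 of 7 were called lower and 2 higher, and for the PIP aquaporins, water channels of the plasma membrane, 2 of 7 lower and 1 higher. Circadian clock genes included 1 called lower and 4 called higher of 9. Over all 25957 genes, 22.5% were called lower and 20.3% higher, with a median of -0.07.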

How the data were processed

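Leaf mRNA of 18 samples was sequenced. The labels' protocols describe poly-T selection of mRNA and random-primed cDNA and name no step that marks strand. The authors deposited 1 table of whole-number read counts per gene. Per the submitters' processing notes, fastp 0.22.0, HTSeq 0.9.1 and build IRGSP-1.0 were used. Not given in the sources used here are the aligner, the annotation release, the strand setting and any filter, so overlapping genes and near-identical copies may share reads.

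The quasi-likelihood test of edgeR 4.0.16 (R 4.3.3) was run on these counts with TMM scaling, after filterByExpr (min.count 10, min.total.count 15). This kept 25957 genes, all 150 members among them. The model had 6 group means over all 18 libraries and 12 residual degrees of freedom, 10 contrasts were tested, and calls were made at a Benjamini-Hochberg adjusted p under 0.05 over all genes. Standard errors were derived from the F statistics. The fits were also run on simulated data, with the same spread for every gene and no divergent library. That run therefore does not bear on the divergent libraries of these data. CPM values use column totals. The series design calls the replicates biological, without saying whether each was a plant or a pool. In the main fit, p-values set a group difference against the spread between these samples, estimated over all 6 groups.

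The members, the lists and the rules were chosen with earlier results of these data known. Printed by identifier were at most 2 genes per ranking: the largest mean falls, the highest control levels, the falls that differed least and most between genotypes, the last 2 members and the next 2 genes, and any member called in a genotype contrast, of which there was none. Alternatives were DESeq2 1.42.0, RLE, library totals, no filter, a minimum mean of 5 CPM, fits restricted to the groups of a contrast, a replicate block, and leaving out each library. For the choice of members they were other pseudocounts (0.1 and 2), other minimum levels (1 and 20 CPM), TMM-scaled totals and medians. Library totals, the 3 libraries left out together, the rule without the overlap condition or without the FKBP57 knockout, the counts in a genotype left out of the choice with each library left out, and the rule for raised genes were added after seeing the data, as were the counts of members by direction.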

Additional observations from a re-analysis of the deposited data

How the results depend on the processing

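The count of members called lower in the FKBP57 knockout was 8 in a fit of only that knockout's libraries. It was 45 to 131 when each library was left out in turn. In the other genotypes and for the mean over genotypes no setting run moved the count by over 1.5 times. The shares of all genes called lower under salt are given for the main fit only. For the FKBP57 knockout against wild type under salt, DESeq2 called 12 members, a fit of only those groups 1, the replicate block 1, and leaving out libraries gave 0 to 1. DESeq2 called 1 member for the FKBP73 knockout under salt and 1 for the difference of the FKBP57 knockout's salt response. The replicate numbers share no stated source, and same-numbered libraries did not deviate together throughout (correlations from -0.64 to 0.83). The highest, 0.83, was between control 3 of the FKBP57 knockout and control 3 of wild type. With the replicate block, 104, 142 and 140 members were called lower in the FKBP57 knockout, the FKBP73 knockout and wild type. Of the 150 members, 80 were chosen again with a minimum of 20 CPM, 19 without the overlap condition, 37 without the 6 FKBP57 knockout libraries, 5 without 3 libraries, 118 with TMM-scaled totals, and 78 to 148 without each library in turn. Genes chosen in the other genotypes and separated in the FKBP57 knockout numbered 11 to 119 without each library in turn. Members higher in the FKBP73 knockout than in wild type numbered 56 to 87 under salt and 65 to 97 under control over the settings run, on both sides of 75 of 150. A higher minimum level only removes genes, so the 80 chosen again with a minimum of 20 CPM were the members that reached it. The cause of the other shifts was not tested. The named members kept their direction and side of the threshold for salt averaged over genotypes in all 248 alternative values. The rule used this contrast, so their direction was all but fixed by the choice, and nothing is read from this count. With 3 libraries a group, member-wise differences of the salt response had a median SE near 0.46, which limits what could be called.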

Other observations

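The mirrored rule, applied to genes raised by salt, gave more genes and larger changes. With a mean of at least 5 CPM over the salt libraries, 1499 genes had their lowest salt library above their highest control library, and the 150 largest rises ran from 2.93 to 7.14 on the log2(CPM + 0.5) scale. Their median rise was 3.33 in the FKBP57 knockout, 3.69 in the FKBP73 knockout and 3.90 in wild type, and the rise was smallest in the FKBP57 knockout for 85, in the FKBP73 knockout for 40 and in wild type for 25. The FKBP57 knockout's median was 0.854 of the wild-type median for these raised genes and 0.719 of it for the 150 repressed genes, a difference between the gene groups that was not tested.

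By the chromosome number in their identifiers, the repressed genes lay on all 12 chromosomes, from 7 on chromosome 7 to 21 on chromosome 2. Chromosome 11 had 13, or 1.58% of its genes of at least 5 CPM, against 0.942% over all chromosomes. In the order of identifiers 3 pairs of members were in successive rows of the table. One of these pairs, picked out after its values were seen, was Os04g0419550 and Os04g0419600. The second had 44 CPM in FKBP57 knockout control 2, against 3.82 to 5 CPM in that group's other controls, while the first had 5.91, 3.82 and 8.03 CPM in controls 1, 2 and 3 of that group, so the high value in control 2 was in the second gene alone.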
